A study of Caenorhabditis elegans with 12 samples.

Results

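The wild-type expression profile of Caenorhabditis elegans embryos at the 3-fold stage was read from the 4 wild-type arrays of a set of 12. Every array that carried the wild-type title was taken, and the samples were whole embryos, from which total RNA was hybridised. The labels give them the genotype N2 Bristol and the strain JT5010, and how these 2 names relate is not stated. The other 8 arrays held 4 of a daf-12(sa204) mutant and 4 of the double mutant that combines daf-19(m86) with the same daf-12 allele, both at the 3-fold stage. All non-control probe sets, 22548 in number, were ranked by their mean log2 level over the 4 wild-type arrays. The labels do not say that the 4 samples came from separate cultures, so the SD given with a level measures only the spread between these samples. A single group was described, so no test between groups was made. In whole embryos, fewer cells of a type and less RNA per cell cannot be told apart.

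At the 3-fold stage the worm embryo has stopped most of its cell divisions and has elongated inside the eggshell until it is folded over on itself. Body wall muscle contracts and the embryo moves. The epidermis, which drove the elongation through its actin and junctions, secretes collagens and other matrix proteins for the cuticle of the first larva. Pharynx, intestine and nervous system are laid down and differentiating, while only the primordial germ cells stand for the germ line.

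The deposited values were log2 levels from Affymetrix arrays, made with RMA per the submitters' processing notes. Mean levels spanned 2.95 to 14.60, with a median of 6.27. A probe set was put in the abundant class when its mean lay in the highest 10% of probe sets, which began at 9.66. Background was set at 5.17, the 95th percentile of 27 bacterial poly-A control probe sets, which match no worm gene, averaged over arrays 1 and 2. A probe set between these limits was classed as middling. There were 2255 abundant probe sets, 12909 middling ones (57.3%) and 7384 at background (32.7%), and 13413 (59.5%) exceeded background on each of the 4 arrays. Among 17118 named genes, each stood for by its probe set of highest mean, 1742 were abundant, 9797 middling and 5579 at background. A level here is the brightness of a probe set, which also depends on how well its probes bind, so the order of genes is an order of signal and not of molecules.

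**Figure D1:**
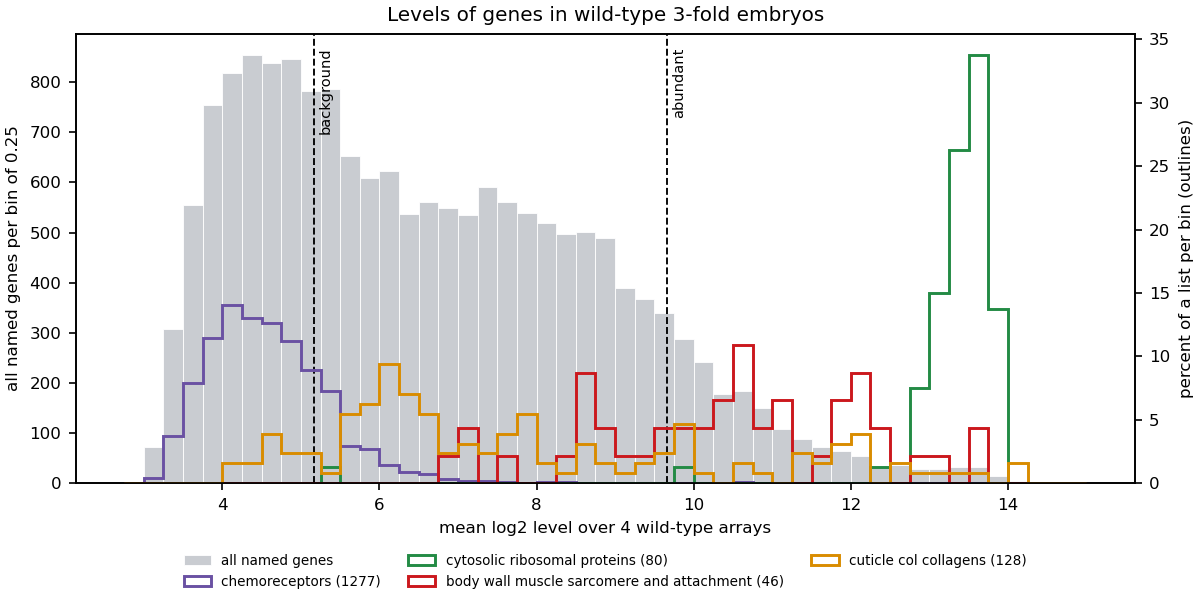
Grey bars count the 17118 named genes in bins of 0.25 of mean log2 level over the 4 wild-type arrays (left axis), and outlines give the percent of each of 4 gene lists per bin (right axis). Dashed lines mark background at 5.17 and the lower limit of the abundant class at 9.66. Ribosomal protein genes sit at the right end, chemoreceptor genes mostly left of the background line, and col collagens across the whole range.

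Pairs of wild-type arrays correlated at Pearson's r of 0.943 to 0.969 across probe sets, which are not independent replicates. The median absolute difference between 2 arrays was 0.312 to 0.419. The 24 probe sets of the poly-A controls Dap, Lys, Phe and Thr averaged 4.19 and 4.16 on arrays 1 and 2 but 10.21 and 7.96 on arrays 3 and 4. These controls are added to the RNA, and their levels on arrays 3 and 4 could not serve as a background. The 8 yeast and Trp control probe sets did not differ in this way, with means of 4.28, 4.04, 4.22 and 4.12.

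Cuticle collagens and ribosomal proteins filled the top of the ranking. Of the 30 genes of highest level, 21 encode cytosolic ribosomal proteins, 4 encode cuticle collagens, and the others include a cuticlin, a linker histone and a lipid-binding protein. The collagen gene sqt-3, which shapes the larval body, was the brightest, at 14.52, 14.66, 14.64 and 14.58 on arrays 1 to 4. The sequence-named gene F41F3.3 followed at 14.42 ± 0.09 (SD, n = 4, as for each ± below). The collagen genes col-93 and col-125 came next, at 14.19 ± 0.31 and 14.10 ± 0.36. For both, array 1 was the lowest, at 13.74 for col-93 and 13.58 for col-125, while arrays 2 to 4 lay between 14.19 and 14.39. The cuticlin gene cut-2 stood at 14.04 ± 0.12 and the collagen gene dpy-17 at 14.02 ± 0.05. The histone H1 gene hil-7 reached 13.94 ± 0.15, and far-1, for a fatty acid and retinol binding protein, 13.78 ± 0.07.

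These 30 genes lay within 0.93 on the log2 scale. For 0 of the 29 neighbouring pairs did the 4 arrays of a gene lie clear of the 4 arrays of the next. The ranges of neighbours thus overlapped, but ranges do not compare 2 genes within an array. On every array sqt-3 exceeded F41F3.3, which read 14.55 on array 2 and 14.37 to 14.40 on the others. The probe sets of 23 of the 30 carried a suffix that marks probes open to more than 1 transcript. Going further down, ribosomal protein genes made up 67 of the 100 highest genes and 78 of the 200 highest, while col collagens made up 5 of the 100.

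**Figure D2:**
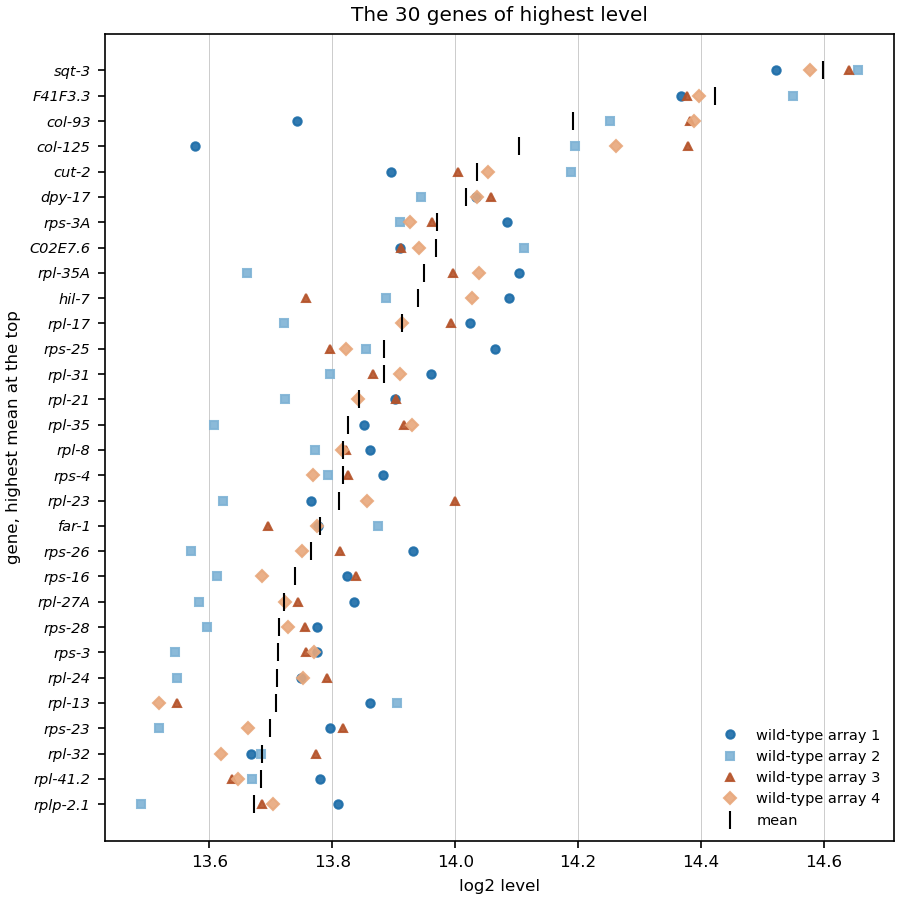
Log2 level of the 30 genes of highest mean on each wild-type array, with the mean as a vertical bar. The genes span 0.93 on the log2 scale, and the points of neighbouring genes overlap throughout. Array 1 lies to the left for col-93 and col-125.

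Across 65 gene lists, 25 had a median above the 75th percentile of named genes, 37 between the 25th and the 75th, and 3 below the 25th. All named genes together split into 10.2% abundant, 57.2% middling and 32.6% at background, which is the share against which the counts below are given. The lists overlap in places, and a gene that belongs to more than 1 was counted in each.

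**Figure D3:**
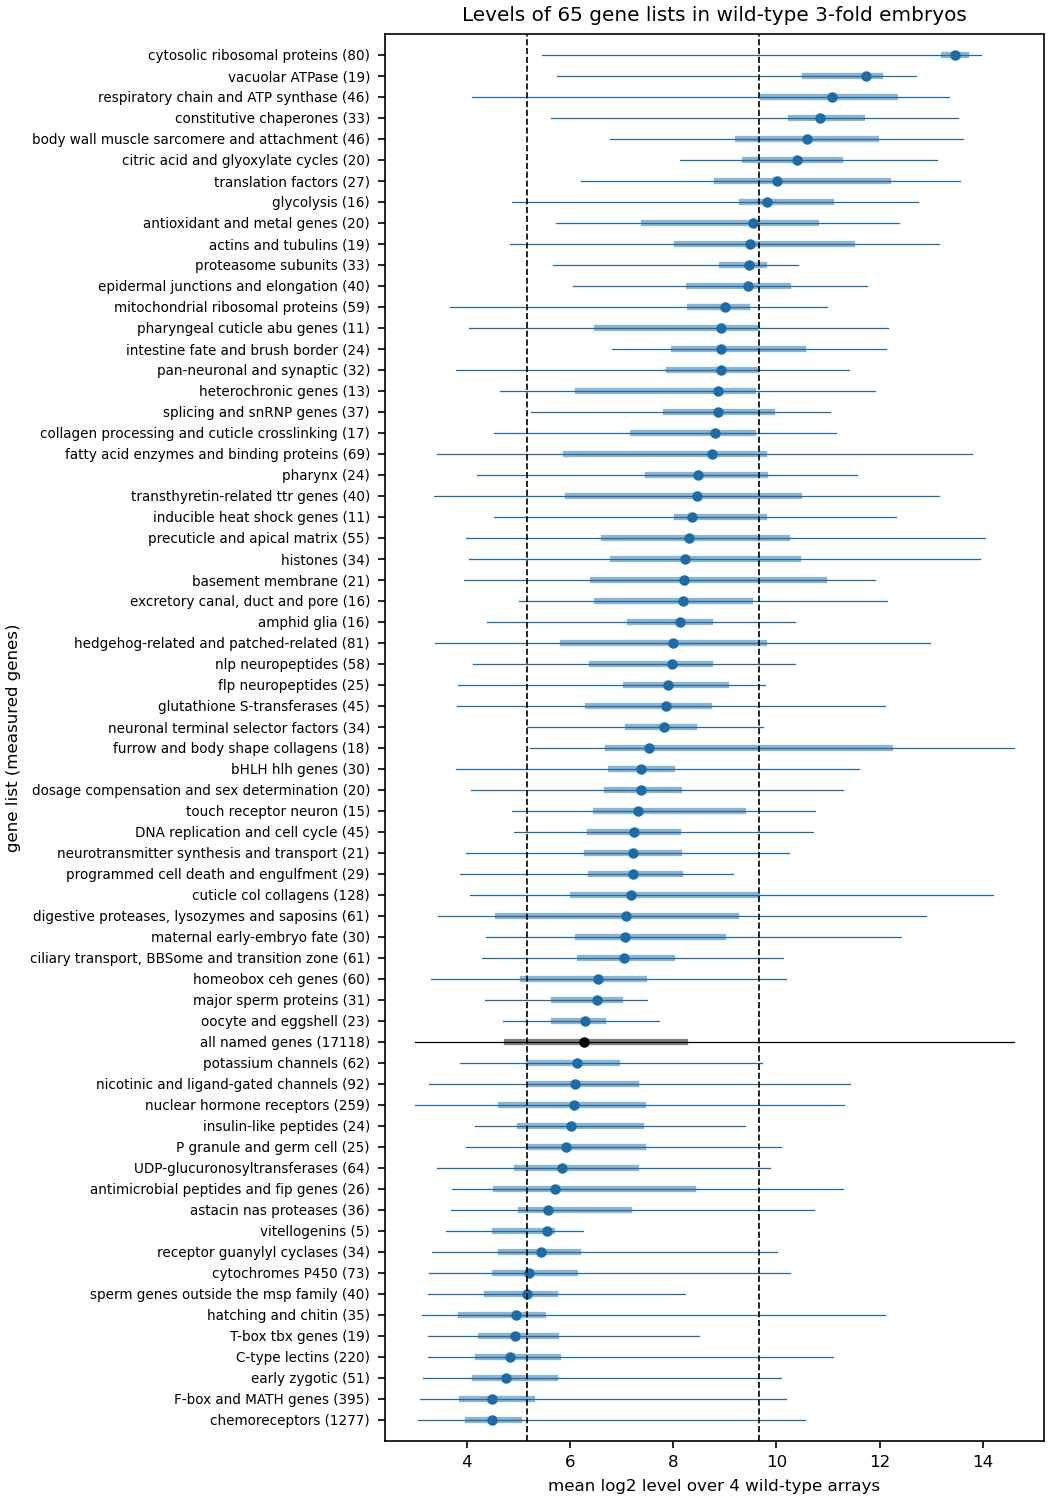
Mean log2 level over the 4 wild-type arrays for the members of 65 gene lists and for all named genes (black), ordered by the median percentile. Points are medians, thick bars the middle 50% of genes and thin lines the full range, and dashed lines mark background and the abundant limit. Ribosomal proteins, the vacuolar ATPase, respiration, chaperones and body wall muscle lead, and chemoreceptors and F-box or MATH genes close the order.

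Collagens of the cuticle were split between very bright and dim members. Of 18 furrow and body shape collagens, 8 were abundant, 10 middling and 0 at background, with a median of 7.54. After sqt-3 and dpy-17 in this list, dpy-14 read 13.38, 13.37, 13.36 and 13.41, and dpy-13 read 12.53, 12.89, 13.40 and 13.30. The furrow collagen dpy-7, used here as an epidermal marker, stood at 11.26 ± 0.41. At the other end, bli-1 and bli-2, which form the struts of the adult cuticle, stood at 5.27 ± 0.24 and 5.91 ± 0.50, and sqt-1 at 5.23 ± 0.20. The arrays of bli-1 ran from 5.04 to 5.61 and so lay on both sides of background.

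The large col family held 128 measured genes, of which 32 (25%) were abundant, 82 middling and 14 at background. Its median was 7.17 and its range 4.07 to 14.19, from col-55 to col-93. Below col-93 and col-125, col-43 stood at 13.67 ± 0.17 and col-165 at 13.32 ± 0.36. The lowest members, col-181, col-49 and col-55, lay between 4.07 and 4.44 and below background on all 4 arrays. The probe sets of 51 of the 128 genes carried the suffix for more than 1 transcript, so the signal of near-identical collagens cannot be told apart.

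Enzymes that mature collagen were mostly middling, at 12 of 17 genes. The thioredoxin-like dpy-11 and the prolyl hydroxylase subunit dpy-18 were the highest of them, at 11.15 ± 0.16 and 10.46 ± 0.47. Of the proteases of moulting in this list, nas-37 lay at 5.50 ± 0.30 and nas-36 at 5.12 ± 0.10, at or close to background. In the whole astacin family of 36 genes, 1 was abundant. That gene was hch-1, the eggshell-digesting hatching protease, at 11.37, 11.11, 10.42 and 10.02 on arrays 1 to 4.

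The precuticle and apical matrix list covers proteins that coat the epidermis and line its tubes before the cuticle forms. Of 55 genes, 16 were abundant, 38 middling and 1 at background. Besides cut-2, the zona pellucida domain gene cut-3 stood at 13.47 ± 0.11. The lipocalin gene lpr-3 read 12.53, 12.47, 12.04 and 11.89, and noah-1, a component of the embryonic sheath, read 12.53, 11.99, 11.75 and 11.36. Both were lower on arrays 3 and 4 than on arrays 1 and 2, where the spiked controls were lower, and the part of that split was not tested. The cuticlin-like gene cutl-1 was the member at background, at 3.98 ± 0.31.

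Hedgehog-related and patched-related genes, many of them made by worm epithelia, were also spread over all classes, with 23 abundant, 45 middling and 13 at background of 81. The secreted proteins led, with grl-15 at 12.98 ± 0.22, wrt-1 at 12.51 ± 0.17 and wrt-2 at 12.37 ± 0.08. The lowest, grl-24, read 3.39 ± 0.05.

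Junction and elongation genes of the epidermis were all above background on every array, with 19 of 40 abundant and 21 middling. Nonmuscle myosin light chains led, with mlc-4 at 11.76 ± 0.36 and mlc-5 at 11.47 ± 0.18. The intermediate filament gene ifb-1 stood at 11.45 ± 0.38. The hemidesmosome gene let-805, for myotactin, stood at 11.39 ± 0.21. The apical junction scaffold dlg-1 read 11.56, 11.44, 10.88 and 11.55. The epidermal fate factor lin-26 stood at 10.66 ± 0.36 and the GATA factor elt-1 at 8.33 ± 0.17. The growth factor gene lin-3 and the junction gene vab-19 were among the lowest, at 6.56 ± 0.53 and 6.05 ± 0.44.

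Body wall muscle was the tissue list of highest median among those compared here, at 10.58, and all 46 of its genes exceeded background on every array. Of these, 31 (67.4%) were abundant. The myosin light chain mlc-2 read 13.49, 13.61, 13.65 and 13.74, and pat-10, the troponin C of body wall muscle, read 13.46, 13.56, 13.49 and 13.65. Calponin-like clik-1 and the immunoglobulin-repeat gene dim-1 followed at 13.13 ± 0.27 and 12.78 ± 0.25. Paramyosin, unc-15, stood at 11.67 ± 0.52. The myosin heavy chains unc-54 and myo-3 stood at 11.16 ± 0.71 and 10.19 ± 0.47. For unc-54, array 2 lay above the other 3, which ran from 10.69 to 10.99. The muscle fate factor hlh-1, the worm MyoD, was the lowest gene of the list, at 6.09, 6.28, 7.51 and 7.22.

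Pharynx genes were dimmer as a list, with a median of 8.48 and with 7 abundant, 15 middling and 2 at background of 24. The pharyngeal troponin C gene tnc-2 stood at 10.43 ± 0.17. The pharyngeal myosin myo-2 read 7.05, 8.71, 7.36 and 7.47, again with array 2 apart from the rest. The organ fate factor pha-4, a FoxA protein, stood at 8.46 ± 0.37 and the muscle factor ceh-22 at 7.61 ± 0.37. Of the gland genes, phat-2 and phat-5 were abundant at 10.63 ± 0.28 and 10.52 ± 0.61, and phat-3 was at background at 4.20 ± 0.07. Among 11 abu genes, listed here under the pharyngeal cuticle by their name alone, abu-14 stood at 12.16 ± 0.58 and abu-13 at 11.80 ± 0.51. The lowest, abu-2, stood at 4.04 ± 0.37. For abu-8, array 1 read 7.92 and the other 3 read 9.63 to 10.33.

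The intestine list held 10 abundant and 14 middling genes of 24, all above background on every array by their brightest probe set. The actin of the brush border, act-5, stood at 12.11 ± 0.23, and ifb-2, an intermediate filament under it, at 11.31 ± 0.20. The actin-binding gene eps-8 stood at 11.32 ± 0.48 and vha-6, the intestinal proton pump subunit, at 10.68 ± 0.22. For eps-8, the lowest of 4 probe sets averaged 4.79, below background. The GATA factor elt-2, which sets the fate of the tissue, stood at 8.05 ± 0.12 and the gut esterase ges-1 at 7.51 ± 0.30. Digestive genes were mixed, with 11 abundant, 30 middling and 20 at background of 61. The aspartyl proteases asp-1, asp-3 and asp-6 stood at 12.89 ± 0.36, 11.98 ± 0.23 and 11.94 ± 0.60, whereas the invertebrate lysozymes ilys-1 and ilys-6 stood at 3.75 ± 0.09 and 3.58 ± 0.28. In the excretory system list, 12 of 16 genes were middling.

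**Figure D4:**
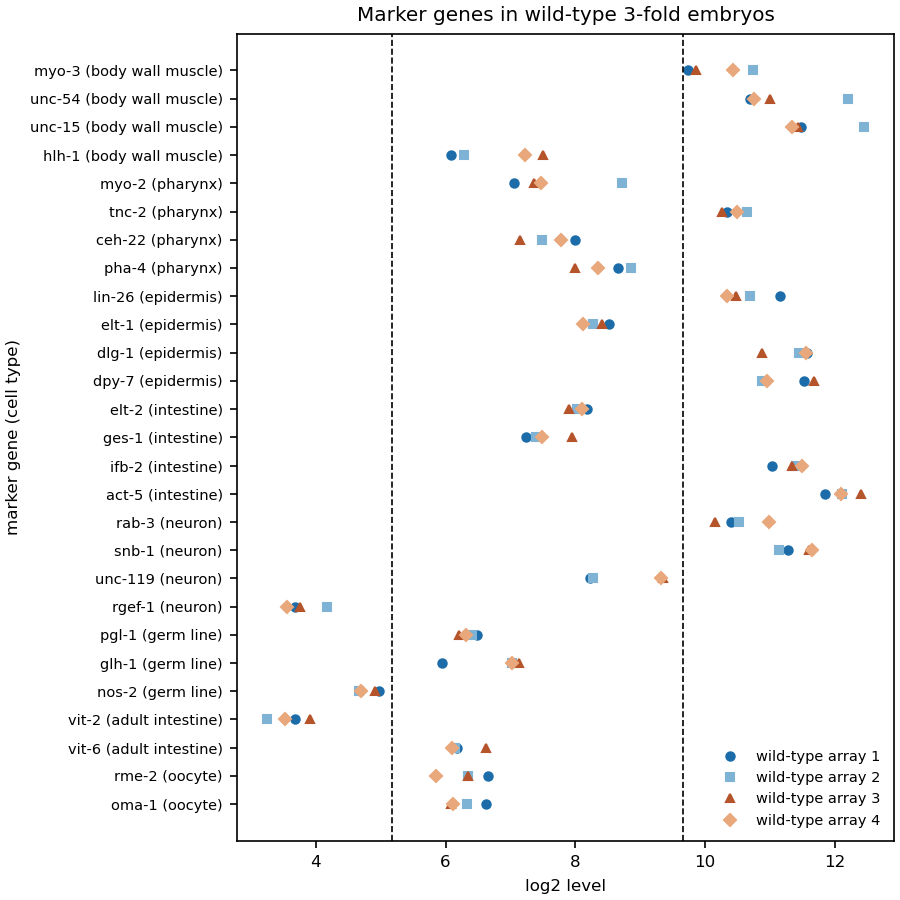
Log2 level of marker genes of 5 somatic tissues, the germ line, the oocyte and the adult intestine on each wild-type array, with dashed lines at background and at the abundant limit. Of the 20 somatic markers, 19 lie above background on every array and rgef-1 lies below it on every array.

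Synaptic and pan-neuronal genes had a median of 8.92, with 7 abundant, 23 middling and 2 at background of 32. Synaptobrevin, snb-1, stood at 11.41 ± 0.24 and the vesicle GTPase rab-3 at 10.51 ± 0.34. The neuronal ankyrin unc-44 stood at 11.28 ± 0.35, and the neuroendocrine chaperone sbt-1 at 10.64 ± 0.33. The 2 genes at background were unc-31, needed for release of dense core vesicles, at 4.95 ± 0.47 and rgef-1, a pan-neuronal Ras exchange factor, at 3.68, 4.17, 3.75 and 3.56. The genes rgef-1 and unc-31 were each read by a single probe set, and unc-31 exceeded background on arrays 1 and 2, at 5.36 and 5.35. The pan-neuronal gene unc-119 read 8.23 and 8.27 on arrays 1 and 2 and 9.36 and 9.33 on arrays 3 and 4.

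Transcription factors that select neuron types were nearly all middling, at 32 of 34, with a median of 7.82. The homeodomain zinc finger gene zag-1 was the abundant one, at 9.74 ± 0.30. The POU factor unc-86 stood at 9.02 ± 0.38 and che-1, which specifies the ASE taste neurons, at 5.50 ± 0.37. Genes of transmitter synthesis and transport were middling in 18 of 21 cases. The GABA transporter snf-11 was abundant at 10.24 ± 0.33, and unc-25, which makes GABA, read 7.32, 8.83, 8.88 and 9.11. The serotonin transporter mod-5 was at background, at 4.69 ± 0.32.

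Neuropeptide genes were middling too, in 22 of 25 flp genes and 46 of 58 nlp genes. The highest flp gene was flp-9, at 8.62, 9.97, 10.13 and 10.41, and the lowest flp-23, at 3.84 ± 0.29. Among nlp genes, nlp-36 stood at 10.36 ± 0.33 and nlp-33 read 8.64, 10.57, 10.37 and 10.55. Of 24 insulin-like peptide genes, 17 were middling and 7 at background. The highest of them, ins-34, read 10.69, 8.64, 9.74 and 8.46.

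The 4 highest touch receptor neuron genes included a pair of tubulins. These tubulin genes, mec-7 and mec-12, stood at 10.75 ± 0.23 and 9.50 ± 0.50, the tubulin acetyltransferase mec-17 at 10.15 ± 0.35 and the RNA-binding splicing factor mec-8 at 9.58 ± 0.34, while mec-10, a subunit of the touch channel, stood at 5.89 ± 0.35. Ciliary genes were middling in 55 of 61 cases, with a median of 7.05. The 1 abundant gene was daf-19, the RFX factor that switches on ciliary genes, at 10.14 ± 0.26. The kinesin-II subunit klp-11 stood at 9.53 ± 0.30. Among those at background were the transport subunits dyf-11 and ift-81 and the BBSome subunit bbs-2, at 4.64 ± 0.25, 4.29 ± 0.31 and 4.50 ± 0.32. In the list for glia of the amphid sense organ, 13 of 16 genes were middling, with daf-6 at 9.52 ± 0.38. The 1 abundant gene was lit-1, also in the maternal fate list, at 10.36 ± 0.86. The 2 at background were vap-1 and fig-1, at 4.88 ± 0.20 and 4.39 ± 0.35.

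Chemoreceptors of the mature nervous system were mostly at background. Of 1277 chemoreceptor genes, 1033 (80.9%) were at background, 243 middling and 1 abundant, and 113 exceeded background on every array. They made up 18.5% of all named genes at background, and 1277 of the 17118 named genes of any class. The exception was srr-4, at 10.10, 10.69, 10.55 and 10.89. The next, srr-1, stood at 8.47 ± 0.54 and srv-1 at 8.05 ± 0.46. Receptor guanylyl cyclases had a median of 5.44, and 14 of 34 were at background. Among them gcy-28 alone was abundant, at 10.18, 10.81, 9.13 and 9.90. Ligand-gated channels numbered 4 abundant, 65 middling and 23 at background of 92, led by lgc-22 at 11.42 ± 0.18. Potassium channels numbered 1, 47 and 14 of 62, and the abundant one was twk-49 at 9.73 ± 0.44.

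Nuclear hormone receptors, a family much expanded in this worm, had a median of 6.08, close to that of all named genes at 6.28. Of 259, 6 were abundant, 166 middling and 87 at background. The highest was nhr-3 at 11.32 ± 0.21, and nhr-49, a regulator of fat metabolism, stood at 10.76 ± 0.23. The steroid receptor daf-12 read 8.96, 9.33, 8.09 and 8.83. Homeobox ceh genes were 2 abundant, 42 middling and 16 at background of 60, with the PBX gene ceh-20 at 10.18 ± 0.13. Genes of the T-box family were lower, with 12 of 19 at background and tbx-2, which acts in the pharynx, at 8.50 ± 0.31.

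Heterochronic genes, which time the larval stages, ranged from 4.65 to 11.90. The amyloid precursor relative apl-1 stood at 11.90 ± 0.20 and the Hunchback-like hbl-1 at 11.63 ± 0.41. The kinase gene kin-20 read 10.07, 10.76, 8.72 and 8.65. The early larval regulator lin-14 was at background, at 5.03 ± 0.50, and the late regulator lin-29 stood at 5.84 ± 0.67. The arrays of lin-14, at 5.47, 5.38, 4.86 and 4.39, lay on both sides of background.

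Protein synthesis held the highest list median of the 65. All but 1 of 80 cytosolic ribosomal protein genes were abundant, with a median of 13.47 and list medians of 13.54, 13.37, 13.56 and 13.50 on arrays 1 to 4. The highest was rps-3A at 13.97 ± 0.08, and the gene named rpl-42 lay apart at 5.47 ± 0.50. A probe set of rpl-8 read 13.82 ± 0.04, whereas its other probe set averaged 3.99. Of 27 translation factors, 15 were abundant, with the elongation factors eef-1A.1 and eef-2 at 13.55 ± 0.05 and 12.83 ± 0.20. Mitochondrial ribosomal proteins were mostly middling, at 43 of 59, with a median of 9.01.

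Energy metabolism lists had lower medians than the ribosomal list, at 10.39 for the citric acid and glyoxylate cycles and 9.82 for glycolysis. Among 46 genes of the respiratory chain and ATP synthase, 35 (76.1%) were abundant, with a median of 11.08. Cytochrome c, cyc-2.1, stood at 13.35 ± 0.20 and the nucleotide carrier ant-1.1 at 13.12 ± 0.11. Their paralogs cyc-2.2 and ant-1.2 were at background, at 4.10 ± 0.15 and 4.38 ± 0.15. The citric acid and glyoxylate cycle list held 13 abundant genes of 20. Its highest was icl-1, the glyoxylate cycle enzyme that lets worms make sugar from fat, at 13.25, 13.71, 12.75 and 12.71. In glycolysis, 8 of 16 genes were abundant, and the near-identical gpd-2 and gpd-3 stood at 12.67 ± 0.16 and 12.75 ± 0.21. The vacuolar ATPase list had a median of 11.74 with 16 of 19 abundant, and vha-12 stood at 12.70 ± 0.26.

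Chaperones that act without stress were abundant in 26 of 33 cases. Calreticulin, crt-1, which folds secreted proteins, read 13.56, 13.50, 13.52 and 13.49. The genes hsp-90 and hsp-1 stood at 12.59 ± 0.08 and 12.51 ± 0.10. In the heat shock list, hsp-12.1 and hsp-12.2 stood at 12.31 ± 0.59 and 12.29 ± 0.14, while the stress-induced hsp-70 stood at 5.40 ± 0.76, between 4.54 and 6.38. Proteasome subunits were 10 abundant and 23 middling of 33, with a middle 50% from 8.95 to 9.75 and a full range from 5.66 to 10.43. The lowest was rpn-6.2, at 5.87, 6.33, 4.87 and 5.60, and the highest was pbs-5, a subunit of the catalytic core, at 10.43 ± 0.48. The antioxidant prdx-2 stood at 12.37 ± 0.14, and the metallothionein mtl-1 read 4.40, 7.27, 7.23 and 8.40.

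Lipid and defence genes varied by family. In the fatty acid list, 20 of 69 genes were abundant, with far-1 and far-3 highest, the latter at 13.33 ± 0.34. Of 40 transthyretin-related genes, 15 were abundant, led by ttr-16 at 13.15 ± 0.33. Glutathione S-transferases had 9 abundant genes of 45, with gst-4 at 12.09 ± 0.46. Cytochromes P450 had 1 of 73, cyp-13B1 at 10.26 ± 0.60, and 35 at background. Among C-type lectins, 137 of 220 were at background and 7 abundant, with clec-266 at 11.10 ± 0.11. Of 395 F-box and MATH genes, 290 (73.4%) were at background, and bath-42 was the abundant one at 10.18 ± 0.32. Chemoreceptors, F-box and MATH genes and lectins together made up 26.2% of the named genes at background. These lists held 1277, 395 and 220 of the 17118 named genes of any class.

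Cell division genes were middling, at 40 of 45, with a median of 7.25. The gene of highest level was cki-1, which encodes an inhibitor of cyclin-dependent kinases, at 11.16, 10.15, 10.90 and 10.59. The mitotic cyclin cyb-3 stood at 10.11 ± 0.58, and cdk-2 and the kinetochore gene ndc-80 were at background, at 5.03 ± 0.57 and 4.92 ± 0.11. The arrays of cdk-2, at 5.76, 5.18, 4.55 and 4.62, lay on both sides of background. Histones ranged from 4.04 to 13.94, and the replacement histone his-72 stood at 12.70 ± 0.11. Cell death and engulfment genes were middling in 27 of 29 cases.

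Lists for the earliest embryo differed in level. Their medians were 4.76 for early zygotic genes, 5.92 for the P granule list and 7.06 for maternal fate genes. The median of all named genes was 6.28. Of 51 early zygotic genes, 31 were at background, among them tbx-35, which acts in the MS lineage, at 3.44 ± 0.07. The GATA gene elt-6, which also acts later in the epidermis, was abundant at 9.91 ± 0.13. Maternal fate genes were 5 abundant, 22 middling and 3 at background of 30. The 14-3-3 gene par-5 and the kinase mbk-2 stood at 12.42 ± 0.09 and 11.31 ± 0.06. The 3 at background, mex-1, nos-2 and pop-1, stood at 4.45 ± 0.40, 4.81 ± 0.16 and 4.37 ± 0.35. In the P granule list, pgl-1 and glh-1 were middling, at 6.35 ± 0.13 and 6.78 ± 0.56, and 5 of 25 were at background.

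Adult germ line and yolk genes had 0 abundant members. Of 5 vitellogenin genes, 3 were middling and 2 at background, and 1 exceeded background on every array. That one was vit-6, at 6.18, 6.14, 6.62 and 6.10, while vit-2 read 3.68, 3.25, 3.92 and 3.53. The major sperm protein (msp) list, which also takes in ssp genes, held 27 middling and 4 at background of 31. Its range was 4.36 to 7.50, and 27 of the 31 were read by probe sets open to more than 1 transcript. All 23 msp genes themselves were middling, from 5.36 to 7.50. Their median was 7.14, 6.14, 7.32 and 6.33 on arrays 1 to 4, so it differed between arrays. Other sperm genes were evenly split, 20 middling and 20 at background. Oocyte and eggshell genes lay between 4.70 and 7.73, with rme-2 at 6.30 ± 0.33 and oma-1 at 6.29 ± 0.25. These levels were close to the median of all named genes.

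Spread between the 4 arrays was moderate and differed by class. The median SD was 0.34 for abundant probe sets, 0.42 for middling ones and 0.25 for those at background. Of the 2255 abundant probe sets, 1608 exceeded the abundant limit on every array. The abundant gene of largest SD was egl-30, the Gq alpha subunit, at 11.70, 12.27, 8.24 and 7.68, a split between arrays 1 and 2 and arrays 3 and 4. The mitochondrial chaperone hsp-60 split in the same way, at 10.92, 11.86, 9.91 and 8.94. A different array stood low for the ubiquitin-like ubl-5, at 10.29, 8.30, 11.81 and 11.14, and for the antimicrobial peptide gene cnc-4, at 7.76, 11.63, 10.20 and 10.50. The spiked controls move with the split of egl-30 and hsp-60, and their part in it was not tested.

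Whole lists also moved between arrays. The median deviation of the members from their own means ranged over more than 0.5 in 20 lists and over more than 1 in 6. For flp neuropeptides it was -0.79, -0.09, 0.45 and 0.40 on arrays 1 to 4, and for nlp neuropeptides -0.69, -0.06, 0.33 and 0.40. The col collagens were lower on arrays 1 and 2, at -0.43 and -0.46, and higher on arrays 3 and 4, at 0.64 and 0.28. Their list median accordingly ran from 6.52 on array 1 to 8.0 on array 3. Basement membrane genes went the other way, at 0.21, 0.50, -0.57 and -0.20, and the type IV collagen emb-9 read 11.66, 12.70, 10.79 and 10.96. The msp list was higher on arrays 1 and 3, at 0.34 and 0.50, and lower on arrays 2 and 4, at -0.59 and -0.31. Ribosomal protein genes, in contrast, had list medians within 0.18 of each other. The part of the spiked controls in these movements was not tested.

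**Figure D5:**
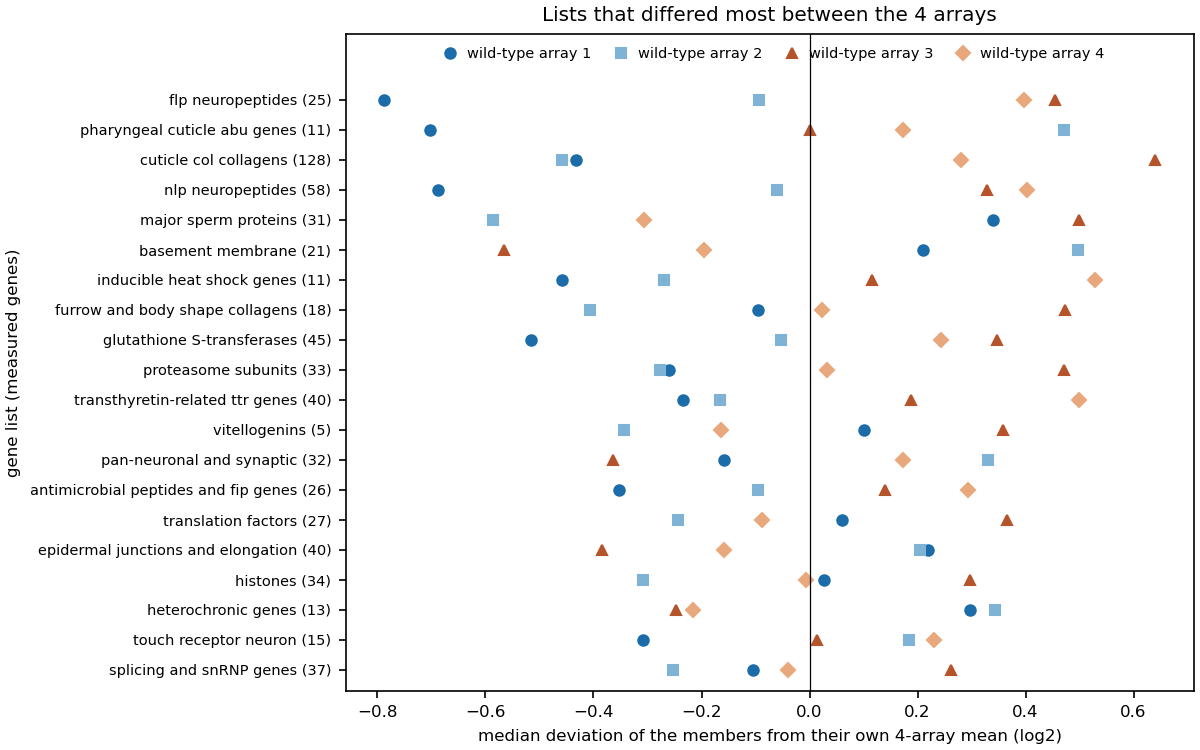
Median deviation of list members from their own 4-array mean (log2) on each wild-type array, for the 20 lists in which it ranged over more than 0.5. Neuropeptide genes and col collagens lie low on array 1 and high on arrays 3 and 4, and basement membrane genes the other way.

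A gene's own probe sets often disagreed. Among 2981 genes with more than 1 probe set, the highest and the lowest differed by a median of 0.91, and 589 genes (19.8%) differed by more than 2. Probe sets of 878 genes (29.5%) fell in more than 1 class, and 28 genes had an abundant one and one at background. For daf-12, the 3 probe sets ran from 3.85 to 8.80, and for the ankyrin unc-44, 9 probe sets ran from 5.38 to 11.28. A class given above for such a gene is that of its brightest probe set.

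Genes known only by a sequence name made up 23.6% of abundant genes, 37% of middling ones and 48.0% of those at background. After F41F3.3, the brightest were C02E7.6 at 13.97 ± 0.10, Y47D7A.13 at 13.38 ± 0.30 and F07H5.3 at 13.31 ± 0.67. For F07H5.3, array 2 at 12.31 lay below the other 3, which ran from 13.61 to 13.70. Of the 1742 abundant genes, 1209 (69.4%) were in none of the 65 lists. Most named genes lay outside the lists, since 4369 of all named genes (25.5%) were in at least 1 of them.

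The ranking in the mutants was close to that in wild type. Across genes, which are not independent replicates, Spearman's rho of the mean levels was 0.993 with the daf-12 mutant and 0.990 with the double mutant. Of the 1742 highest genes of the wild type, 1588 (91.2%) were among the same number of highest genes in the daf-12 mutant and 1557 (89.4%) in the double mutant. In the double mutant, 2 of the 4 columns were identical and were counted once.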

How the data were processed

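RNA of whole embryos was hybridised to Affymetrix C. elegans arrays. The deposited values are log2 levels per probe set, and per the submitters' processing notes they were made with RMA, with no version given. RMA quantile-normalizes and summarises probes, so an overall shift between arrays is removed. The genome build behind the probe annotation is not given in the sources used here. The number of arrays limits the precision.

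From the 12 deposited columns, all mapped to a label, the 4 wild-type ones were averaged. Control probe sets (77) were left out. In the platform annotation, 20766 probe sets had a single gene name. Those with several names (887) or with no name (895) were ranked but not named. A RefSeq gene table, used for names alone, held 20701 of the named ones and changed 0 symbols. A gene was stood for by its probe set of highest mean. No test between groups, model or filter on low values was applied, because a single group is described. Dixon's criterion was used only to flag an array far from the others. The code for the classes and for the choice of a gene's probe set was checked on simulated data with known levels. That check does not bear on how well the real probe sets read their genes. Python 3.11.15, pandas 2.3.3 and numpy 2.4.6 were used.

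The members and the 65 lists were chosen with earlier results of these data known, and the pattern of the ribosomal list was widened after gene symbols were seen. Named genes were the 30 highest, up to 4 highest and 3 lowest of each list, the 10 abundant genes of largest SD, 10 abundant sequence-named genes, daf-19, daf-12 and fixed markers of tissues, germ line, oocyte and adult intestine, with the msp list as the sperm marker. Alternatives were the arrays averaged, the background level, the abundant limit, the probe sets kept, the probe set of a gene and the list summary. A planned description of promoters and protein lengths was not run, since no sequences were used here.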

Additional observations from a re-analysis of the deposited data

Results flagged for a closer look

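Each of 66 list medians (65 lists and all named genes) and 171 genes named in the text was examined for an array far from the other 3, by a gap to the nearest array that exceeded Dixon's 95% critical share of the whole range. This marked 16 of 237, and chance marks about 1 in 20 groups of this size. Array 1 was the one apart in 6, array 2 in 5, array 3 in 4 and array 4 in 1.

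Array 1 was low, with the gap as a share of the range in brackets, for asp-1 at 12.37 (0.852), col-165 at 12.78 (0.942), glh-1 at 5.94 (0.912), nlp-33 at 8.64 (0.898), sbt-1 at 10.14 (0.894) and unc-25 at 7.32 (0.844). Array 2 was high for C02E7.6 at 14.11 (0.851), F41F3.3 at 14.55 (0.842) and unc-15 at 12.45 (0.881). It was low for F07H5.3 at 12.31 (0.935) and for the median of sperm genes outside the msp family at 4.80 (0.932), where the other arrays lay at 5.06 to 5.08. Array 3 was low for daf-19 at 9.75 (0.949) and mec-10 at 5.37 (0.9) and high for mex-1 at 5.06 (0.915) and vit-6 at 6.62 (0.848). Array 4 was high for bath-42 at 10.65 (0.934).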

How the results depend on the processing

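No paired analysis was possible because a single group is described and no result comes from a test between groups. Without each array in turn, the share of probe sets at background ran from 32.1% to 33.6% against 32.7%, the lists with a median above the 75th percentile from 24 to 27 against 25, and the genes shared with the 30 highest from 28 to 29. The share at background was 45.4% with the limit at 5.94, from the chemoreceptor list, and 34.4% with the limit at 5.26, from yeast and Trp controls, an alternative added after seeing the data. By the mean in place of the median, 16 lists lay above the 75th percentile. Lists with over 50% of genes abundant numbered 7, against 4 when the highest 5% were taken as abundant and 20 when the highest 20% were. Without probe sets open to more than 1 transcript they numbered 11, 10 of the 30 highest genes were shared, and the abu list fell by 47 percentile points. With the lowest probe set of each gene the heterochronic list fell by 30.6 points. A list was counted as moved when its percentile shifted by at least its SD over the single arrays. Of 65 lists, 43 moved without probe sets open to more than 1 transcript. By the mean percentile 35 moved, with the lowest probe set 27, and under each other setting at most 12. Leaving out probe sets removes genes by construction, and the cause of the other shifts was not tested. Probe binding limits any comparison between genes, and levels near background cannot be told from no signal.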

Other observations

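Gene families named by a shared prefix add to the profile beyond the 65 lists. Among 113 prefixes with 15 or more named genes, sec genes, which act in protein secretion, had a median of 9.19, with 7 abundant, 12 middling and 0 at background of 19. The rab GTPases, which direct vesicle traffic, had a median of 8.74, with 8 of 20 abundant. The vps genes of endosomal sorting were middling in 31 of 34 cases and the npp genes of the nuclear pore in 25 of 26. The ptr genes, relatives of patched, had 7 abundant genes of 24, and the inx genes of gap junctions 6 of 21. Neuropeptide receptors of the npr family had 0 abundant genes of 44 and 7 at background.

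Families at the low end included irld genes, with 54 of 56 at background, pals genes with 18 of 23, and chil genes with 21 of 25. Among chemoreceptor families of this size, the share at background ran from 19 of 29 srv genes to 52 of 58 srz genes. These families were picked for their rank after their values were seen.

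Control probe sets for worm genes gave a view of transcript ends. The 3′ minus 5′ difference was 0.38 ± 0.42 (SD, n = 4) for actin and 0.05 ± 0.19 for Gapdh, against 3.08 ± 0.21 for ubiquitin and 1.01 ± 0.44 for catalase. For catalase it was 1.66 on array 4 and 0.73 to 0.88 on the other 3.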
